A study of Mus musculus with 11 samples.

Results

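The genes described here are 33 genes of glucose uptake, glycolysis, pyruvate fate and the hypoxia response, taken as named rows from the 52997 rows of a gene count table of regulatory T (Treg) cells. The rule that picks them goes by gene name and uses no measured value. The genes were, however, chosen with earlier results of these data known, and the study had reported glycolysis as enriched in the same data. Counts of called genes are therefore no independent check of that report. Of the 33 genes, 32 passed the filter on low counts (libraries were scaled to a common total, and the mean of some group had to exceed 10), which left 12932 genes for testing. Vegfa, the angiogenic growth factor and a classical target of HIF, had at most 1 count in any library and was not tested.

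The cells came from mice transgenic for the vTreg53 T cell receptor, taken from a Treg clone of visceral adipose tissue (VAT). Clonotype+ cells are those that stained for Vα2 and Vβ4. Such staining does not show whether a cell carried other receptor chains too. Treg cells from vTreg53 Tg+ Foxp3-GFP donors (CD45.2+, C57BL/6) were transferred into CD45.1+ B6 mice, whose own T cells were told apart by that marker. The recipients, labelled 15 wk and M (male), were primed 6 weeks later with 200 µg of Fat1562, a surrogate agonist peptide of this receptor, in complete adjuvant and were boosted 1 week after that with 100 µg in incomplete adjuvant. After 1 more week, 1000 clonotype+ CD45.2+ cells per library were double-sorted from pooled spleen and lymph nodes (Spl/LN) or from epididymal VAT. The 11 libraries form 4 groups: Spl/LN control (n = 3), Spl/LN Fat1562 (n = 3), VAT control (n = 2) and VAT Fat1562 (n = 3). The labels call the control mice unimmunized and name PBS, whereas the study's methods describe adjuvant without peptide, so the Fat1562 comparisons may hold an effect of the adjuvant as well. The libraries were called biological replicates, but nothing states which came from which mouse, so p-values measure the spread between these libraries.

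Glycolysis splits glucose into pyruvate in the cytosol. Hexokinase and phosphofructokinase spend ATP in its upper part, and phosphoglycerate kinase and pyruvate kinase earn ATP in its lower part. Lactate dehydrogenase turns pyruvate into lactate, which leaves the cell through monocarboxylate carriers, whereas the mitochondrial pyruvate carrier and pyruvate dehydrogenase send pyruvate into mitochondria. The factor HIF-1α, which prolyl hydroxylases mark for destruction when oxygen is present, drives many of these genes, and activated T cells raise glycolysis even with oxygen at hand, while Treg cells at rest rely more on mitochondrial oxidation.

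Total counts were 4490242 to 6570057 per library, the biological coefficient of variation was 19.1% over all genes tested, and no 2 libraries of a group agreed within counting error. Foxp3, the lineage factor of Treg cells, had 6747 to 10250 normalized counts (counts scaled to the mean library total) and Cd4 had 2114 to 3518, so the sorted cells carried both defining transcripts in every library. Of 10 adipocyte markers, 8 never exceeded 10 counts, and the summed markers of macrophages and monocytes (5.79 to 29.0 CPM, counts scaled to a common total of all counts) and of red cells (2.12 to 6.24) were low everywhere. The summed B cell markers were 1203 and 6972 CPM in the VAT control libraries, 1177 to 1630 in VAT Fat1562 and 2376 to 3614 in Spl/LN. VAT, unlike Spl/LN in the methods given, was digested with collagenase, and 17 immediate early and heat shock genes summed to 22838 and 19906 CPM in VAT control and to 12172, 10646 and 9630 in VAT Fat1562, against 2776 to 3977 in Spl/LN. The part of digestion in the differences between tissues, and of these genes in the Fat1562 difference within VAT, was not tested. In bulk libraries, more cells expressing a gene and more RNA of it per cell cannot be told apart.

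Levels of different genes were compared as normalized counts per kb of annotated exon. In Spl/LN control libraries the highest was Ldha, lactate dehydrogenase A, at 2001 ± 48.7 (SD, n = 3), followed by Pkm, pyruvate kinase, at 1260 ± 66.8 and Aldoa, aldolase A, at 894 ± 81.5 on this scale. Gapdh and Tpi1, which make and use the triose phosphates, came next at 538 ± 52.2 and 389.7 ± 56.9 per kb, but the Tpi1 level did not differ beyond its spread from that of Gpi1, glucose-6-phosphate isomerase (381 ± 17.9). The lowest levels among the genes tested were those of Pfkfb4 (6.94 ± 7.06) and Hk2 (4.50 ± 1.33), which overlapped. The group means of the top 3 kept this order in all 4 groups, although the Pkm and Aldoa libraries overlapped in VAT control. In VAT Fat1562 the levels were 3992 ± 498 per kb for Ldha and 2629 ± 245 for Pkm.

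**Figure D1:**
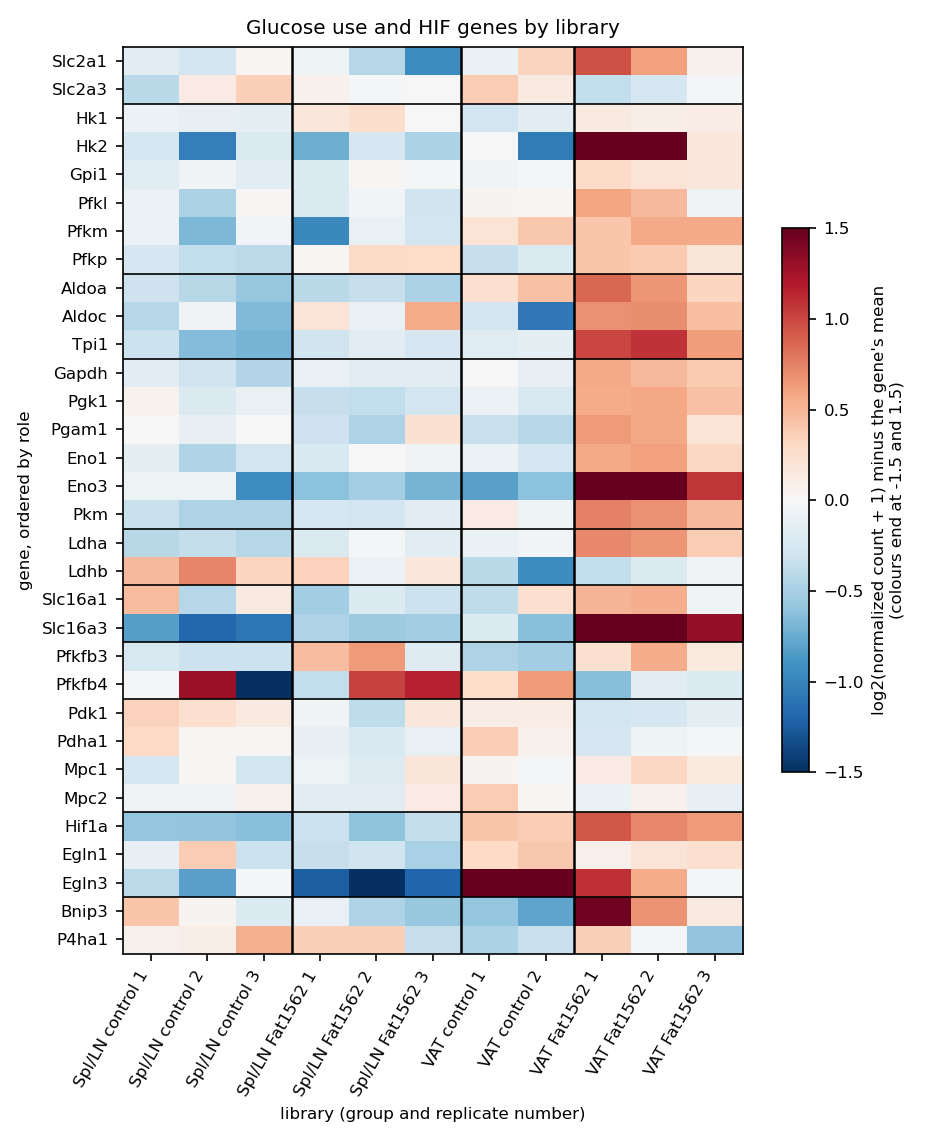
Each square is 1 of the 32 tested genes (rows, ordered by role, with lines between roles) in 1 of the 11 libraries (columns), and its colour is log2(normalized count + 1) minus the mean of that gene over all libraries. Most rows from Hk2 to Slc16a3 are reddest in the 3 VAT Fat1562 libraries, with the palest of those squares in replicate 3, whereas Egln3 is reddest in the 2 VAT control libraries.

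The first comparison asked which of these genes differed between VAT Treg cells of Fat1562 and control mice. With the peptide 15 of 32 tested genes rose and 1 fell, against 4.33% and 3.97% of all genes tested. All 17 transcripts from hexokinase to lactate dehydrogenase had a positive log2 fold change and 11 of them passed the test (edgeR's quasi-likelihood test, Benjamini-Hochberg adjusted p under 0.05, here called). Every step but that of Gpi1 had a called gene, at hexokinase and aldolase only through the less abundant isozymes Hk2 and Aldoc. The median log2 fold change of the 32 genes was 0.42, and that of all genes tested was 0.01. The steepest rises were in lactate export (Slc16a3), in the enolase and hexokinase isozymes Eno3 and Hk2, and in the mitophagy gene Bnip3, while the abundant Pkm and Ldha rose 1.53-fold and 1.59-fold.

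Slc16a3 encodes MCT4, the monocarboxylate carrier known for lactate export from glycolytic cells. Its normalized counts were 283 and 211 in VAT control and 1534, 1195 and 813 in VAT Fat1562. Every Fat1562 library lay above both controls, and the log2 fold change was 2.25 ± 0.22 (SE, edgeR adjusted p = 5.97e-06), a 4.76-fold difference. By contrast Slc16a1, which encodes MCT1, had 105 and 162 in VAT control and 196, 200.5 and 132 in VAT Fat1562, with overlapping groups and a log2 fold change of 0.40 ± 0.28 (SE, edgeR adjusted p = 0.465).

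Among the uptake and hexose phosphate steps, Hk2, the inducible hexokinase, had few counts and a wide spread. It had 36.9 and 17.5 normalized counts in VAT control and 135, 154 and 41.9 in VAT Fat1562, where replicates 1 and 2 were far above replicate 3, which itself was close to a control library. The log2 fold change was 2.00 ± 0.52 (SE, edgeR adjusted p = 0.0237). Pfkp, the platelet type subunit of phosphofructokinase, had 994 and 1088 in VAT control against 1691, 1660 and 1432 in VAT Fat1562 without overlap, a log2 fold change of 0.61 ± 0.12 (SE, edgeR adjusted p = 0.00247). The other subunits were not called: Pfkl, the liver type, had a log2 fold change of 0.33 ± 0.17 (SE), and Pfkm, the muscle type, had 0.22 ± 0.28. Neither Hk1, the constitutive hexokinase (log2 fold change 0.33 ± 0.11), nor Gpi1 (0.26 ± 0.09) passed the test, although their groups did not overlap. Neither glucose carrier was called. Slc2a1 (GLUT1), the carrier known to be induced in activated T cells, had 149 and 201 normalized counts in control and 308, 244 and 166 in Fat1562 (log2 fold change 0.45 ± 0.28 SE, edgeR adjusted p = 0.383), and Slc2a3 (GLUT3) had a log2 fold change of -0.47 ± 0.17 (SE, edgeR adjusted p = 0.1). Pfkfb3, whose product makes the activator fructose-2,6-bisphosphate, had 128 and 122 in control and 209, 260.5 and 196 in Fat1562, and its log2 fold change was 0.82 ± 0.24 (SE, edgeR adjusted p = 0.0404).

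At the aldolase and triose steps, Tpi1, triosephosphate isomerase, had 1379 and 1427 normalized counts in VAT control and 3143, 3335 and 2429 in VAT Fat1562, which put even the lowest Fat1562 library well above both controls. The log2 fold change of Tpi1 was 1.08 ± 0.14 (SE, edgeR adjusted p = 6.78e-05). Aldoc, the brain type aldolase, rose from 105 and 59.9 to 205, 208 and 174 (log2 fold change 1.23 ± 0.28 SE, edgeR adjusted p = 0.0107). Aldoa, the far more abundant isozyme, had 5257 and 6057 in control and 8115, 7048 and 5578 in Fat1562, and these groups overlapped (log2 fold change 0.29 ± 0.13 SE, edgeR adjusted p = 0.189).

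All the genes of the lower part of glycolysis passed the test. Eno3, the muscle type enolase, had 45.5 and 52.4 normalized counts in VAT control and 259.6, 248 and 171 in VAT Fat1562, a log2 fold change of 2.21 ± 0.31 (SE, edgeR adjusted p = 0.000194). Eno1, the common enolase, had 1612 and 1444 in VAT control and 2542, 2616 and 2118 in VAT Fat1562 (log2 fold change 0.67 ± 0.12 SE, edgeR adjusted p = 0.00195). The Eno1 difference was thus smaller than that of Eno3, and the groups of neither overlapped. Gapdh, which oxidizes glyceraldehyde-3-phosphate, had 2717 and 2511 in VAT control and 4050, 3837 and 3580 in VAT Fat1562 (log2 fold change 0.55 ± 0.10 SE, edgeR adjusted p = 0.00156). Pgk1, which makes the first ATP of this part, had 473 and 430.3 in VAT control and 743, 753 and 686 in VAT Fat1562 (log2 fold change 0.69 ± 0.13 SE, edgeR adjusted p = 0.00236). Both show 3 Fat1562 libraries close to one another and above the controls. Pgam1, phosphoglycerate mutase, had 104 and 97.3 in VAT control and 206, 197 and 151 in VAT Fat1562 (log2 fold change 0.87 ± 0.24 SE, edgeR adjusted p = 0.0354). Pkm, pyruvate kinase, had 9122 and 8030 in VAT control and 14179, 13472 and 11793 in VAT Fat1562 (log2 fold change 0.62 ± 0.09 SE, edgeR adjusted p = 0.000299). The groups of neither overlapped.

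At the fork after pyruvate, Ldha had 8157 and 8470 normalized counts in VAT control and 14464, 13833 and 11347 in VAT Fat1562, a log2 fold change of 0.67 ± 0.09 (SE, edgeR adjusted p = 0.00021). Ldhb, the subunit known to favour the conversion of lactate to pyruvate, had 124 and 84.8 in VAT control and 127, 142 and 159 in VAT Fat1562 and was not called (log2 fold change 0.45 ± 0.23 SE, edgeR adjusted p = 0.278). None of the 4 genes of mitochondrial pyruvate entry was called. The log2 fold change was -0.33 ± 0.13 (SE) for Pdha1, a subunit of pyruvate dehydrogenase, -0.34 ± 0.16 for Pdk1, a kinase that inhibits this enzyme, 0.19 ± 0.22 for Mpc1 and -0.26 ± 0.18 for Mpc2, the subunits of the mitochondrial pyruvate carrier. The 95% interval of the log2 fold change was -0.60 to -0.06 for Pdha1, -0.67 to -0.01 for Pdk1, -0.27 to 0.65 for Mpc1 and -0.65 to 0.13 for Mpc2, so that a log2 fold change of 1 lay outside all of them.

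**Figure D2:**
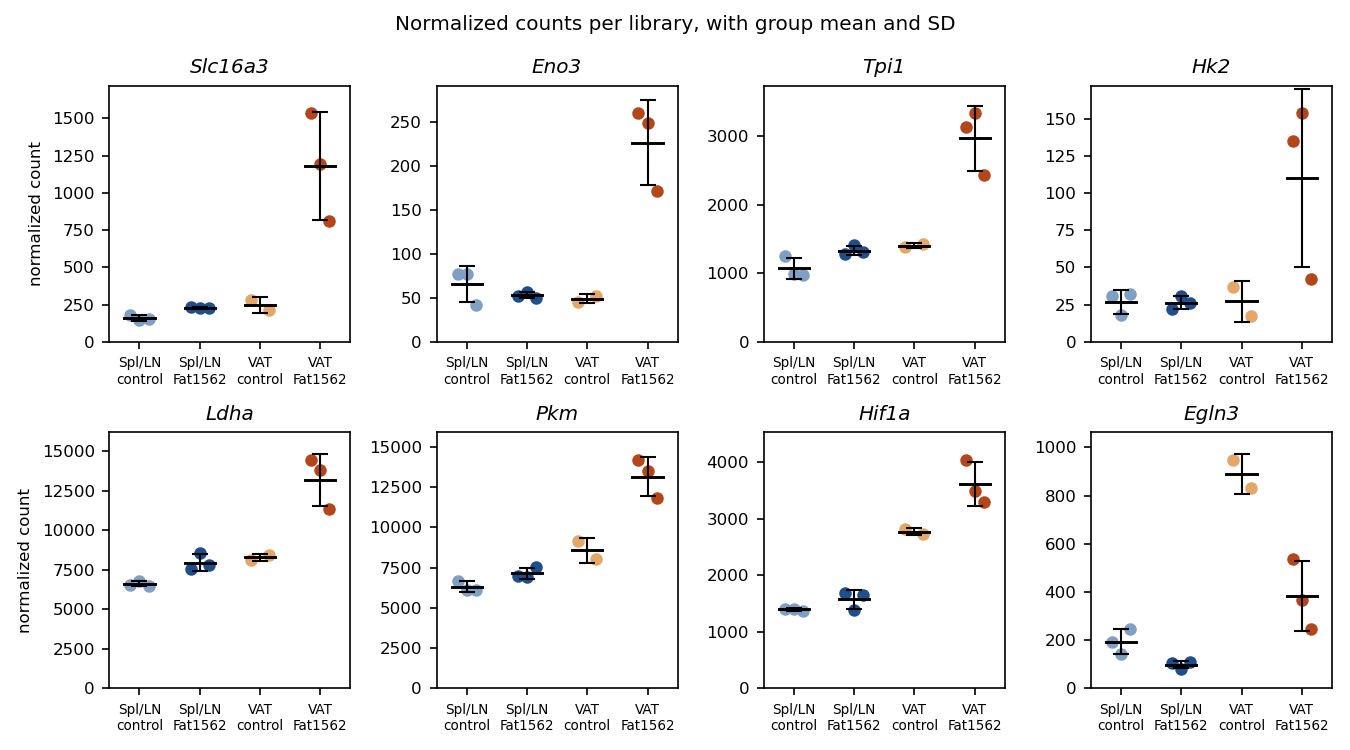
Normalized counts (y axis, from 0) of 8 genes in the 4 groups, with 1 point per library, a bar at the group mean and an error bar of 1 SD (n = 3, 3, 2 and 3). Slc16a3, Eno3, Tpi1, Ldha and Pkm are highest in the 3 VAT Fat1562 libraries, Hif1a is higher in both VAT groups than in Spl/LN, and Egln3 is highest in the 2 VAT control libraries at 948 and 832.

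The genes of the hypoxia response did not move as one. Hif1a, which encodes HIF-1α, had 2812 and 2729 normalized counts in VAT control and 4037, 3487 and 3288 in VAT Fat1562, a log2 fold change of 0.38 ± 0.11 (SE, edgeR adjusted p = 0.0355). HIF-1α is controlled mainly through its protein, which these data do not measure. Egln3, which encodes the prolyl hydroxylase PHD3 and is itself a HIF target, went the other way. It had 948 and 832 in control and 535, 368 and 246 in Fat1562, and fell with a log2 fold change of -1.22 ± 0.25 (SE, edgeR adjusted p = 0.00474). Its relative Egln1 (PHD2) was not called (-0.18 ± 0.27). Bnip3, a HIF target that marks mitochondria for removal, had 33.6 and 28.7 in VAT control and 140.5, 81.4 and 55.6 in VAT Fat1562 (log2 fold change 1.56 ± 0.41 SE, edgeR adjusted p = 0.0249), where replicate 3 of the Fat1562 libraries was the lowest. P4ha1, a collagen prolyl hydroxylase and HIF target, had 353 and 388 in VAT control and 630.5, 485 and 325 in VAT Fat1562 with overlapping groups (log2 fold change 0.37 ± 0.25 SE, edgeR adjusted p = 0.439).

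Replicate 3 was the lowest of the 3 VAT Fat1562 libraries for 14 of the 17 enzymes. Without it 17 genes were called in this comparison, and all 17 enzymes kept a positive sign. The Pgam1 call was also lost with the replicate number as a block, at an edgeR adjusted p = 0.0623. With only 2 control libraries, the count of called genes rested on both: it was 10 without VAT control replicate 1 and 9 without replicate 2. Slc16a3, Eno3, Tpi1, Gapdh, Eno1, Pkm and Ldha passed under each of 20 alternatives, whereas Hk2, Bnip3, Pfkfb3, Pgam1 and Hif1a lost the call under 4 to 6 of them, mostly where 1 of VAT control replicates 1 and 2 or VAT Fat1562 replicates 1 and 2 was left out. Without VAT control replicate 2, where the adjusted p of these genes was highest, the edgeR adjusted p was 0.221 for Hk2, 0.172 for Bnip3, 0.201 for Pfkfb3, 0.198 for Pgam1 and 0.197 for Hif1a.

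For some of these genes the short reads could not settle the source. For each gene, the share of 38-base stretches of its transcripts that also occurs in transcripts of another annotated gene was taken. It was 54.4% for Pgk1, 53.3% for Bnip3, 36.8% for Pgam1, 30.9% for Pkm and 29.0% for Mpc1. Next came Ldhb at 28.3%, Eno1 at 27.6%, Gapdh at 27.0%, Gpi1 at 19.1% and Ldha at 15.3%. The other genes of the set had at most 14.4%. Pgk1-rs7 was the main partner of Pgk1, and Eno1b was that of Eno1. The counts of the genes named with such shares depend on how these reads were assigned. They are less certain than those of Slc16a3, Eno3, Hk2, Aldoc and Egln3, for which the share was 0.

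The second comparison asked the same of Spl/LN, and there few of these transcripts passed the test. Of the 32 genes, 1 rose and 1 fell, against 2.58% and 1.4% of all genes tested. At an unadjusted p under 0.05 there were 12 of the 32, against 2371 of all 12932 genes tested. The median log2 fold change was -0.02 beside 0.00 for all genes. Pfkp rose, from 1064, 978 and 964 to 1276, 1538 and 1526 normalized counts, a log2 fold change of 0.53 ± 0.10 (SE, edgeR adjusted p = 0.00613) that is close to that in VAT. Egln3 fell, from 191, 142 and 247 to 106, 81.2 and 109 (log2 fold change -0.97 ± 0.25 SE, edgeR adjusted p = 0.041), also the direction seen in VAT. The tests of the difference between the tissues gave log2 differences of 0.09 ± 0.15 (SE, edgeR adjusted p = 0.847) for Pfkp and -0.25 ± 0.36 (SE, edgeR adjusted p = 0.799) for Egln3, neither of which passed. The Egln3 call in Spl/LN was lost under 7 of 20 alternatives, and the count of 2 became 1 without Spl/LN control replicate 1 or 3, Spl/LN Fat1562 replicate 1 or 2 or VAT Fat1562 replicate 2, and 3 without VAT Fat1562 replicate 3. Of the 17 enzymes, 10 had a positive and 7 a negative value in Spl/LN.

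Ldha had 6565, 6804 and 6496 normalized counts in Spl/LN control and 7530, 8550 and 7798 in Spl/LN Fat1562. These groups did not overlap, and the log2 fold change of 0.27 ± 0.08 (SE, edgeR adjusted p = 0.0894) missed the threshold. The same held for Slc16a3, with 183, 144 and 153 in Spl/LN control and 236, 224 and 226 in Spl/LN Fat1562 (log2 fold change 0.51 ± 0.20 SE, edgeR adjusted p = 0.168), and for Pfkfb3, with 149.5, 141 and 141 in Spl/LN control and 243, 276 and 155 in Spl/LN Fat1562 (log2 fold change 0.64 ± 0.20 SE, edgeR adjusted p = 0.094). Aldoc had 94.5, 123 and 80.3 in Spl/LN control and 147, 118 and 187 in Spl/LN Fat1562, with overlap (log2 fold change 0.61 ± 0.24 SE, edgeR adjusted p = 0.181). The inducible Hk2 had 30.9, 17.7 and 32.0 in Spl/LN control and 21.9, 31.0 and 26.4 in Spl/LN Fat1562, fully overlapping.

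In the lower part of glycolysis, Gapdh had 2442, 2215 and 2011 in Spl/LN control and 2549, 2441 and 2454 in Spl/LN Fat1562 (log2 fold change 0.16 ± 0.09 SE, edgeR adjusted p = 0.35). Eno1 had 1562, 1249 and 1416 in Spl/LN control and 1459, 1711 and 1651 in Spl/LN Fat1562 (log2 fold change 0.19 ± 0.11 SE, edgeR adjusted p = 0.372), and Pgam1 had 130.2, 121 and 131 in Spl/LN control and 106, 95.1 and 154 in Spl/LN Fat1562 (log2 fold change -0.10 ± 0.21 SE, edgeR adjusted p = 0.854). The groups overlapped for all of these, for Gapdh by a narrow margin. Pkm had 6687, 6091 and 6126 in Spl/LN control and 6999, 6880 and 7504 in Spl/LN Fat1562 (log2 fold change 0.18 ± 0.08 SE, edgeR adjusted p = 0.242), and Aldoa had 3603, 3347 and 3000 in Spl/LN control and 3372, 3514 and 3198 in Spl/LN Fat1562 (log2 fold change 0.02 ± 0.11 SE, edgeR adjusted p = 0.952). Hif1a had 1410, 1401 and 1369 in Spl/LN control and 1692, 1387 and 1644 in Spl/LN Fat1562, with overlap (log2 fold change 0.18 ± 0.10 SE, edgeR adjusted p = 0.346).

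**Figure D3:**
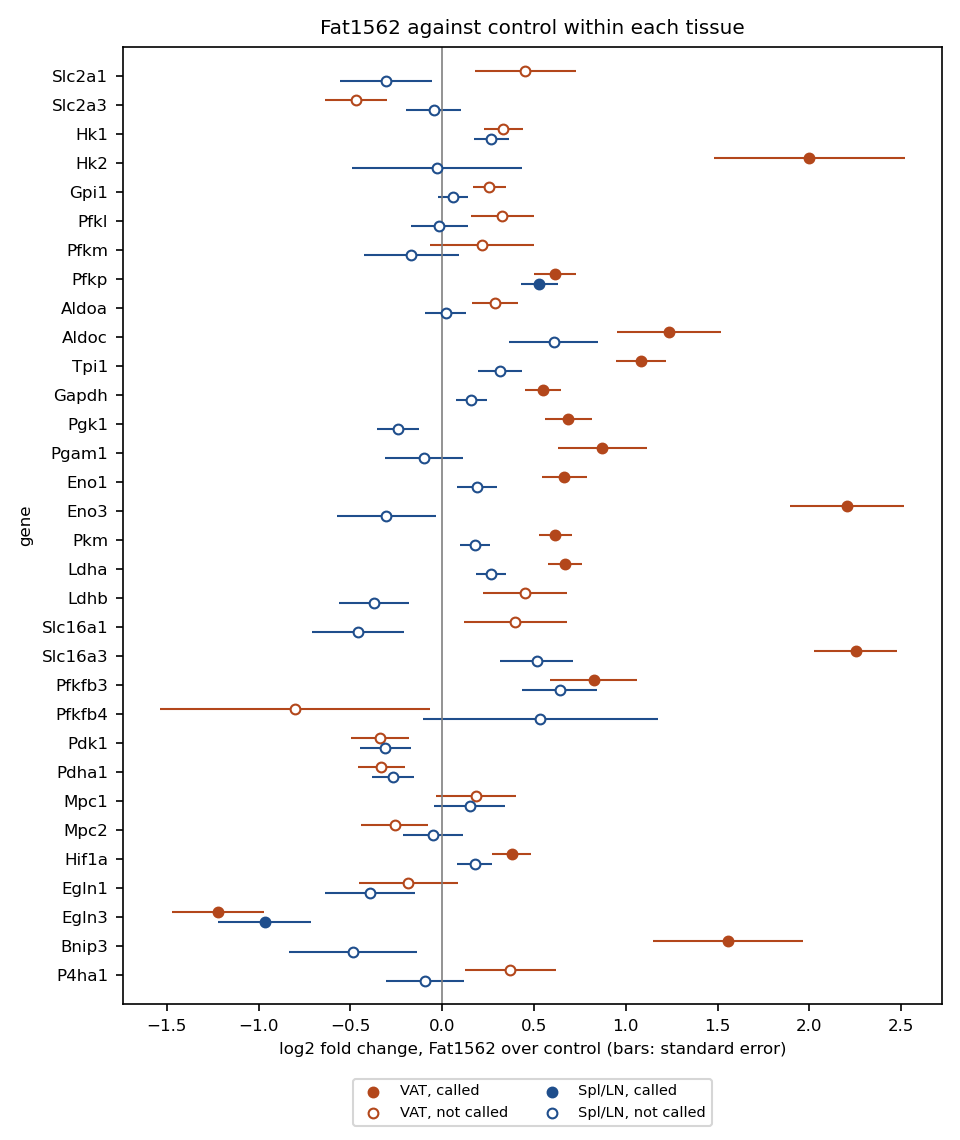
Log2 fold change of Fat1562 over control (x axis) for each of the 32 tested genes (y axis) in VAT (orange) and Spl/LN (blue). Bars are standard errors, filled points passed the test and open points did not. The VAT points of Slc16a3, Eno3, Hk2 and Bnip3 lie farthest right at 2.25, 2.21, 2.00 and 1.56, and the filled Spl/LN points are Pfkp at 0.53 and Egln3 at -0.97.

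The difference between the tissues in the effect of the peptide was tested as an interaction, given as the log2 fold change in VAT minus that in Spl/LN. Of the 32 genes, 5 had a larger effect in VAT and none a smaller one by edgeR, against 1.7% and 2.02% of all genes tested. At an unadjusted p under 0.05 there were 13 genes, all with a larger effect in VAT, against 2193 of all 12932 genes tested. DESeq2 called 7 and 0 of the 32, against 354 and 435 of all genes tested. The median difference was 0.39 beside 0.01 for all genes, and all 17 enzymes had a positive value, from 0.07 for Hk1 to 2.51 for Eno3. The 5 genes were Eno3 at 2.51 ± 0.41 (SE, edgeR adjusted p = 0.00182), Bnip3 at 2.04 ± 0.54 (SE, edgeR adjusted p = 0.0426), Slc16a3 at 1.74 ± 0.29 (SE, edgeR adjusted p = 0.00268), Pgk1 at 0.93 ± 0.17 (SE, edgeR adjusted p = 0.00525) and Tpi1 at 0.77 ± 0.18 (SE, edgeR adjusted p = 0.0226).

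These 5 genes differed in what happened in Spl/LN. Tpi1 had 1253, 997 and 969 normalized counts in Spl/LN control and 1275, 1410 and 1315 in Spl/LN Fat1562, with no overlap and a log2 fold change of 0.31 ± 0.12 (SE, edgeR adjusted p = 0.163). Pgk1 had 523, 432 and 465 in Spl/LN control and 396, 390.1 and 416 in Spl/LN Fat1562, and Bnip3 had 67.5, 52.1 and 43.8 in Spl/LN control and 46.7, 36.3 and 33.6 in Spl/LN Fat1562. The fitted log2 fold changes in Spl/LN were below 0 for both, at -0.24 ± 0.11 (SE) and -0.49 ± 0.35, and neither was called. Eno3 had 77.2, 77.1 and 42.0 in Spl/LN control and 52.4, 56.6 and 49.6 in Spl/LN Fat1562, with overlapping groups. Pkm (log2 difference 0.44 ± 0.12 SE, edgeR adjusted p = 0.0522), Ldha (log2 difference 0.40 ± 0.13 SE, edgeR adjusted p = 0.09), Gapdh (log2 difference 0.39 ± 0.13 SE, edgeR adjusted p = 0.117) and Hk2 (log2 difference 2.03 ± 0.69 SE, edgeR adjusted p = 0.124) were short of the threshold, so a difference between tissues was not shown for them. The count of 5 fell to 3 without Spl/LN control replicate 1, without Spl/LN Fat1562 replicate 1 or without any of VAT control replicates 1 and 2 and VAT Fat1562 replicates 1 and 2, and it rose to 8 without VAT Fat1562 replicate 3. Eno3, Pgk1 and Slc16a3 passed under all 19 alternatives, while Bnip3 was lost under 10 and Tpi1 under 7.

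On GRCm38 the 5 genes lie at chr11:70657202-70662513 (Eno3), chr7:138890836-138909519 (Bnip3), chr11:120948480-120960868 (Slc16a3), chrX:106187100-106203699 (Pgk1) and chr6:124810586-124814296 (Tpi1). Their promoters are shown with those of Ldha, the most abundant gene of the set, and Egln3, which fell with Fat1562. Each is the RefSeq window of 300 bases on GRCm38.p6, from 250 bases before to 50 after a gene's start, read 5′ to 3′ on the gene's strand. Capitals mark ACGTG, the core to which HIF is known to bind, and GCGTG, its common variant, both searched on both strands (as CACGT and CACGC on the other strand). CACGTG, the E-box bound by Myc and related factors, holds ACGTG on each strand. The windows are chr11:120948817-120949116 (plus strand) for Slc16a3, chr11:70656926-70657225 (plus) for Eno3, chrX:106186850-106187149 (plus) for Pgk1, chr6:124814109-124814408 (minus) for Tpi1, chr7:138909457-138909756 (minus) for Bnip3, chr7:46845554-46845853 (plus, the first of 2 windows listed) for Ldha and chr12:54203825-54204124 (minus) for Egln3.
Slc16a3: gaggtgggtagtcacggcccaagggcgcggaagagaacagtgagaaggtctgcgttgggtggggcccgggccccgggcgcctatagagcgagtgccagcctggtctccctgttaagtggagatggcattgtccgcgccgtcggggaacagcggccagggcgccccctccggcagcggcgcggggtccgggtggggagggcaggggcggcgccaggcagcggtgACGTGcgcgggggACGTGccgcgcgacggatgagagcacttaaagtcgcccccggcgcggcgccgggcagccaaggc
Eno3: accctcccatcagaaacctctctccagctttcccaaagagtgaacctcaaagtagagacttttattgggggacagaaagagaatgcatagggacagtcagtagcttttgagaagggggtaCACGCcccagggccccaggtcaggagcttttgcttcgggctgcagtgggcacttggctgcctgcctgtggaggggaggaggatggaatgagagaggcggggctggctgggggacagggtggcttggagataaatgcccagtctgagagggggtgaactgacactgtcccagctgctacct
Pgk1: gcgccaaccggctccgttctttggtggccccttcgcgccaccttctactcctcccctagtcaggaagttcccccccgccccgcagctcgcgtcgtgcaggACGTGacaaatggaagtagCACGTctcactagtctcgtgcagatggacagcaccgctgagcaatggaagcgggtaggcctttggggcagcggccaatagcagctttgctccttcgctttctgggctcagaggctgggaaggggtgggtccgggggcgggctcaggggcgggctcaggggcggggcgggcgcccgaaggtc
Tpi1: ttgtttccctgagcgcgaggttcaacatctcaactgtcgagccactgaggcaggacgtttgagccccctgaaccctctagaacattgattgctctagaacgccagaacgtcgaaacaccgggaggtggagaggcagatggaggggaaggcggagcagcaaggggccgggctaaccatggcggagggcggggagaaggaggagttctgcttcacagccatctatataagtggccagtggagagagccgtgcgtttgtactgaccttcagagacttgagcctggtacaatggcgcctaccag
Bnip3: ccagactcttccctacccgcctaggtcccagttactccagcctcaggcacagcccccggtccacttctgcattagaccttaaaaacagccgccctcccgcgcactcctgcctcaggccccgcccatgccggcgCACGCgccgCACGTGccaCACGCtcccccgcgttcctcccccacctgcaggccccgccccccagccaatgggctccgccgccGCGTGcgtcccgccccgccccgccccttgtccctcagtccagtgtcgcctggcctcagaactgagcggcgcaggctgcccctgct
Ldha: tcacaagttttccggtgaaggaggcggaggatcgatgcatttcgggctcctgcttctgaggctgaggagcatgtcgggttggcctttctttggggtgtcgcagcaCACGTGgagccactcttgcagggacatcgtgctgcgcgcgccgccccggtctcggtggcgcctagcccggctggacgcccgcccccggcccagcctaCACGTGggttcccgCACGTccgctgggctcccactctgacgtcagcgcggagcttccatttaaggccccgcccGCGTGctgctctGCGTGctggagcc
Egln3: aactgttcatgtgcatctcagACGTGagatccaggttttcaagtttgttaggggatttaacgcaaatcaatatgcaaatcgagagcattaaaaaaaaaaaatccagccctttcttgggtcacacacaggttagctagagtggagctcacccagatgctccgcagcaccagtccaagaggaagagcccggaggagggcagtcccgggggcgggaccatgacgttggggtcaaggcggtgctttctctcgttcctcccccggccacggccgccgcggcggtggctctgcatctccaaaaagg

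In these windows ACGTG occurred at 2 places in Slc16a3 (starting at -27 and -14 from the start, counted with the first base of the gene as 1 and the base before it as -1), at 2 in Pgk1 (-150 and -131) and at 1 in Egln3 (-229). Ldha held ACGTG at 5 places, 4 of which come from 2 copies of CACGTG, and GCGTG at 2. Its second window, not shown, held no ACGTG and had GCGTG at 2 places. Bnip3 held ACGTG at 2 places, both from 1 copy of CACGTG, and GCGTG at 3. Eno3 had only GCGTG, once, and the window of Tpi1 held neither motif, while Tpi1 was among the genes that rose in VAT Fat1562. Over the set, 20 of 32 genes with a window (62.5%) had ACGTG in at least 1 window, against 21.8% of all 27025 gene symbols with a window. Per window the share was 48.9% of 47 against 19.6% of all 32851 for ACGTG, 59.6% against 32.4% for GCGTG and 12.8% against 7.15% for CACGTG. Slc2a3 had no entry in the RefSeq table. The set was picked by name from glycolysis and the hypoxia response, and HIF is known to drive many of these genes. The windows were not matched for base content or expression, so no conclusion is drawn from the shares. A match describes these letters and is no evidence of binding.

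The tissue comparison asked how these genes differed between VAT and Spl/LN. In control mice 5 of 32 genes were higher in VAT and 1 was lower, against 9.09% and 7.18% of all genes tested, with a median log2 fold change of 0.15 beside -0.03 for all genes. The genes higher in VAT were Egln3, Hif1a and the 3 enzymes with the highest levels per kb, and 11 of the 17 enzymes had a positive value. That count of 11 and the split of calls depend on scaling: with total counts alone 7 of the 17 were positive, 4 genes were called higher and 2 lower, and the median over all genes was -0.18. The count of 6 called genes was 4 without VAT control replicate 1 and 9 without VAT Fat1562 replicate 3.

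Egln3 had 191, 142 and 247 normalized counts in Spl/LN control and 948 and 832 in VAT control, the largest difference of the set at a log2 fold change of 2.20 ± 0.26 (SE, edgeR adjusted p = 7.77e-06). Hif1a had 1410, 1401 and 1369 in Spl/LN control and 2812 and 2729 in VAT control, a 1.99-fold difference with little spread (log2 fold change 0.99 ± 0.10 SE, edgeR adjusted p = 2.54e-06). Both HIF pathway genes were thus higher in VAT without any peptide. Aldoa had 3603, 3347 and 3000 in Spl/LN control and 5257 and 6057 in VAT control (log2 fold change 0.77 ± 0.12 SE, edgeR adjusted p = 0.00026). Pkm had 6687, 6091 and 6126 in Spl/LN control and 9122 and 8030 in VAT control (log2 fold change 0.44 ± 0.09 SE, edgeR adjusted p = 0.00179), and Ldha had 6565, 6804 and 6496 in Spl/LN control and 8157 and 8470 in VAT control (log2 fold change 0.33 ± 0.09 SE, edgeR adjusted p = 0.021). The Ldha call was lost with total count scaling, at a log2 fold change of 0.18, and with quantile normalization and limma, at 0.01, and the latter also ended the Pkm call, at 0.14. Ldhb was the gene lower in VAT, with 231, 274 and 205 in Spl/LN control and 124 and 84.8 in VAT control (log2 fold change -1.18 ± 0.23 SE, edgeR adjusted p = 0.00149), a call that held under all 20 alternatives.

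In Fat1562 mice 17 of 32 genes were higher in VAT than in Spl/LN and none was lower, against 8.26% and 6.73% of all genes tested. The median log2 fold change was 0.61 beside -0.01 for all genes, and 15 of the 17 enzymes had a positive value. This comparison uses the same VAT Fat1562 libraries as the first one, so the counts are not independent of each other. At an unadjusted p under 0.05 there were 20 genes, all higher in VAT, against 3551 of all 12932 genes tested. DESeq2 called 19 of the 32 higher and 0 lower, against 1234 and 1017 of all genes tested.

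Slc16a3, with 236, 224 and 226 normalized counts in Spl/LN Fat1562 and 1534, 1195 and 813 in VAT Fat1562, had a log2 fold change of 2.36 ± 0.19 (SE, edgeR adjusted p = 1.39e-07). Eno3 followed with 52.4, 56.6 and 49.6 in Spl/LN against 259.6, 248 and 171 in VAT (log2 fold change 2.10 ± 0.26 SE, edgeR adjusted p = 2.04e-05) and Hk2 with 21.9, 31.0 and 26.4 in Spl/LN against 135, 154 and 41.9 in VAT (log2 fold change 2.05 ± 0.44 SE, edgeR adjusted p = 0.00414). In all of these the VAT libraries lay above every Spl/LN library. Slc2a1 had 152, 118 and 82.5 in Spl/LN against 308, 244 and 166 in VAT (log2 fold change 1.03 ± 0.25 SE, edgeR adjusted p = 0.00857), so GLUT1 was called between the tissues of Fat1562 mice and not between Fat1562 and control in VAT. Pfkm had 46.7, 85.5 and 76.1 in Spl/LN against 124, 137 and 137 in VAT (log2 fold change 0.93 ± 0.25 SE, edgeR adjusted p = 0.019), and Pfkl had 673, 763 and 636 in Spl/LN against 1177, 1098 and 755 in VAT (log2 fold change 0.55 ± 0.15 SE, edgeR adjusted p = 0.0223). The Pfkl groups overlapped, since VAT replicate 3 lay below the highest Spl/LN library. In control mice Pfkm had 86.8, 57.3 and 89.5 in Spl/LN and 106 and 122 in VAT, and Pfkl had 738, 561 and 792 in Spl/LN control and 807 and 801 in VAT control. Gpi1 had 2326, 2720 and 2644 in Spl/LN against 3288, 3102 and 3017 in VAT, the smallest called difference of the set (log2 fold change 0.29 ± 0.08 SE, edgeR adjusted p = 0.0225). In control mice its values were 2376, 2589 and 2408 in Spl/LN and 2587 and 2659 in VAT, with overlap, and those of Slc2a1 were 141, 130.2 and 163 in Spl/LN control and 149 and 201 in VAT control.

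Tpi1 (1.16 ± 0.12, SE), Aldoa (1.04 ± 0.11), Pkm (0.88 ± 0.08), Pgk1 (0.86 ± 0.11), Ldha (0.73 ± 0.08), Gapdh (0.62 ± 0.09) and Eno1 (0.59 ± 0.11) were called with positive log2 fold changes under all 20 alternatives. Hif1a (1.19 ± 0.10) and Egln3 (1.95 ± 0.25) were again higher in VAT, and so was Bnip3 (1.24 ± 0.34). Ldhb, lower in VAT of control mice, was not called in Fat1562 mice, with 209, 155 and 183 in Spl/LN and 127, 142 and 159 in VAT (log2 fold change -0.35 ± 0.19 SE, edgeR adjusted p = 0.26). The difference between these Ldhb values, a log2 of 0.82 ± 0.30 (SE, edgeR adjusted p = 0.152), did not pass the interaction test.

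**Figure D4:**
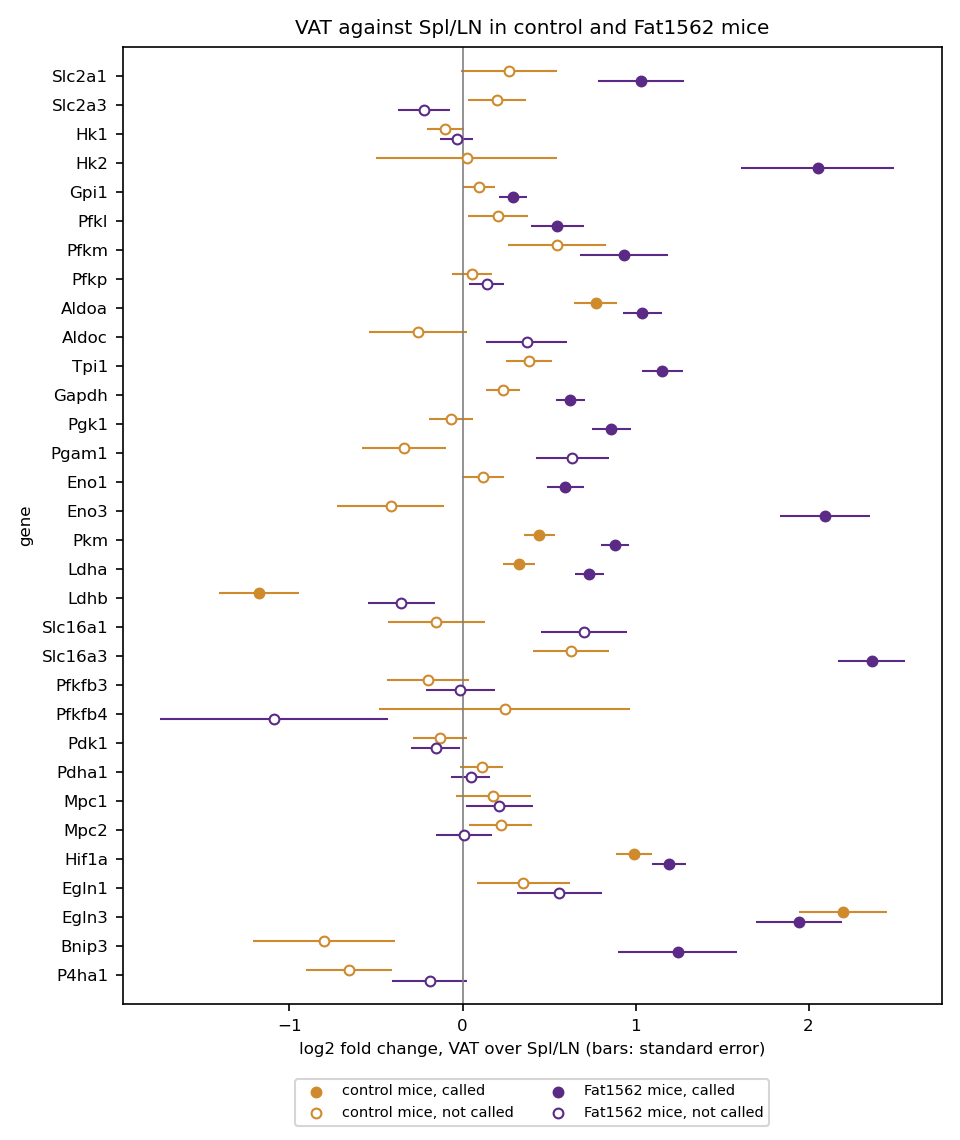
Log2 fold change of VAT over Spl/LN (x axis) for each of the 32 tested genes (y axis) in control mice (gold) and Fat1562 mice (purple). Bars are standard errors, filled points passed the test and open points did not. In control mice the filled points are Egln3, Hif1a, Aldoa, Pkm, Ldha and, left of 0, Ldhb at -1.18, while 17 points are filled in Fat1562 mice.

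Of the 33 genes, 10 passed in none of the 5 comparisons: Slc2a3, Hk1, Slc16a1, Pfkfb4, Pdk1, Pdha1, Mpc1, Mpc2, Egln1 and P4ha1. Pfkfb4, a relative of Pfkfb3, was too variable to judge, with 2.74 to 70.8 normalized counts within the Spl/LN control group alone. The others of this set ran from 55.2 normalized counts for Egln1 to 1264 for Slc2a3. Over all 11 libraries Hk1 ran from 747 to 1091 and Mpc1 from 101 to 152. The Fat1562 and control groups of Hk1 did not overlap in either tissue. Its log2 fold change was 0.33 ± 0.11 (SE, edgeR adjusted p = 0.0691) in VAT and 0.27 ± 0.10 (SE, edgeR adjusted p = 0.133) in Spl/LN.

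Where a step is served by several genes, the shares of each per kb of exon shifted between groups. These shares are a description with no test. Eno3 made up 8.03% and 10.1% of the enolase transcripts Eno1 and Eno3 in VAT control and 24.0%, 22.7% and 20.0% in VAT Fat1562. In Spl/LN it ran from 8.40% to 16.0%, below every VAT Fat1562 library. Hk2 made up 6.59% and 2.96% of Hk1 and Hk2 in VAT control and 16.2%, 18.3% and 5.74% in VAT Fat1562, where the last library was within the control range. Slc16a3 made up 44.4%, 54.0% and 45.9% of the lactate carriers Slc16a1 and Slc16a3 in Spl/LN control, 67.4%, 61.2% and 63.1% in Spl/LN Fat1562, 69.1% and 52.0% in VAT control and 86.7%, 83.2% and 83.7% in VAT Fat1562. Thus Slc16a3 had the larger share in each VAT library, but also in each Spl/LN Fat1562 library and in Spl/LN control replicate 2 (54.0%). VAT control replicate 2, at 52.0%, was near an even split. The VAT Fat1562 libraries stood above all the others.

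Ldhb made up 6.89%, 7.82% and 6.25% of the lactate dehydrogenase transcripts in Spl/LN control and 5.52%, 3.68% and 4.72% in Spl/LN Fat1562. In VAT its share was lower, at 3.10% and 2.07% in control and 1.82%, 2.13% and 2.86% in Fat1562. Slc2a1 made up 19.5% and 28.0% of the glucose carriers Slc2a1 and Slc2a3 in VAT control and 45.9%, 38.2% and 26.3% in VAT Fat1562, with overlap. Pfkp made up 36.8%, 41.9% and 33.1% of the phosphofructokinase subunits in Spl/LN control and 45.3%, 45.1% and 49.1% in Spl/LN Fat1562, with no overlap.

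**Figure D5:**
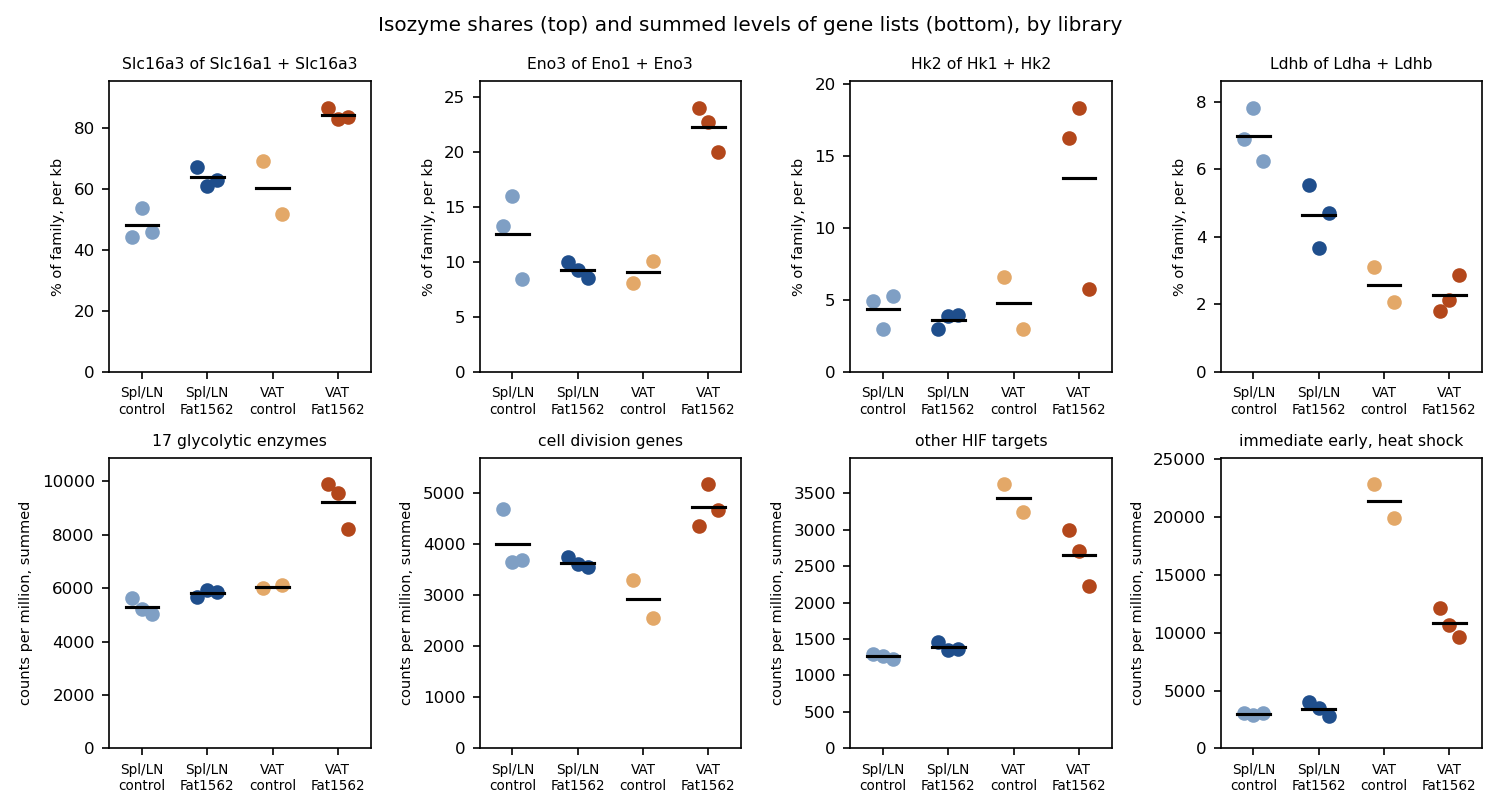
The top row gives, per library, the share of Slc16a3, Eno3, Hk2 and Ldhb in the transcripts of its family (y axis, percent of normalized counts per kb). The bottom row gives the summed level of 4 gene lists (y axis, CPM). Points are libraries and bars are group means. The 17 glycolytic enzymes reach 8204 to 9887 CPM in VAT Fat1562 against at most 6101 elsewhere, and the immediate early and heat shock genes are highest in VAT control.

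Summed over the 17 enzymes, the level was 5632, 5228 and 5042 CPM in Spl/LN control, 5667, 5916 and 5842 in Spl/LN Fat1562, 5993 and 6101 in VAT control and 9887, 9553 and 8204 in VAT Fat1562. As a mean this was 0.605% of all counts in VAT control and 0.921% in VAT Fat1562. Genes of cell division moved with it within VAT: 30 such genes summed to 3296 and 2544 CPM in VAT control and 4363, 5171 and 4665 in VAT Fat1562. All 30 had a positive log2 fold change and 21 were called higher, against 4.33% of all genes tested. Ccne2 had 1.84 ± 0.37 (SE) and E2f8 had 1.73 ± 0.32. In the interaction 11 of the 30 were called higher, against 1.7% of all genes tested. In Spl/LN, where these genes summed to 3543 to 4683 CPM, none was called between Fat1562 and control by edgeR, with 5 at an unadjusted p under 0.05. The part of cell division in the glycolytic difference was not tested. Of markers of other cells in the same comparison, 2 of 5 tested B cell markers fell. Of macrophage markers 1 of 3 rose, and of stroma and endothelium 1 of 2. The summed level of the last list was 48.8 to 55.4 CPM in VAT control and 83.6 to 114 in VAT Fat1562. In Spl/LN this sum was 98.1 to 106 CPM in control and 96.4 to 114 in Fat1562, so VAT control was the low group. Of the 11 genes of that list, 8 never exceeded 10 counts. The part of such cells was not tested.

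Other HIF targets were counted from a list of 42 genes, of which 32 were tested. Between VAT and Spl/LN of control mice 10 were higher and none lower, led by Hilpda (5.05 ± 0.38, SE) and Plin2 (3.74 ± 0.17), proteins of lipid droplets, Anxa1 (2.85 ± 0.20) and the repressor Bhlhe40 (2.66 ± 0.27). With Fat1562 in VAT, 3 rose and 4 fell, and all 7 are named, Mif, Rora and Plin2 after their values were seen. Ankrd37 (1.62 ± 0.44), the mTORC1 inhibitor Ddit4 (1.45 ± 0.17) and the cytokine Mif (0.57 ± 0.16) rose, whereas Anxa1 (-4.64 ± 0.23), Ero1l (-0.96 ± 0.29), Rora (-0.87 ± 0.12) and Plin2 (-0.76 ± 0.16) fell. Anxa1 had 2109 and 1671 normalized counts in VAT control and 110.1, 57.0 and 62.9 in VAT Fat1562. The summed level of the list was 3621 and 3238 CPM in VAT control and 3001, 2714 and 2228 in VAT Fat1562, against 1225 to 1461 in Spl/LN, and its median log2 fold change with Fat1562 in VAT was 0.19 beside 0.01 for all genes. In summed level the 3 Fat1562 libraries lay below both controls for this list and above both for the 17 enzymes. The sum is weighted by abundant genes such as Anxa1. Gene by gene, 21 of the 32 tested targets (65.6%) had a positive log2 fold change with Fat1562 in VAT and 11 a negative one. Of all genes tested, 50.8% had a positive value. Between VAT and Spl/LN of Fat1562 mice 11 of the targets were higher and 1 lower, led by the peptide hormone gene Adm (4.15 ± 1.31) and Hilpda (3.94 ± 0.35). In the interaction 3 of the targets were lower and none higher. At an unadjusted p under 0.05 by edgeR there were 9, against 2193 of all 12932 genes tested. In Spl/LN 3 of the targets rose with Fat1562 and 1 fell, led by Plin2 (1.45 ± 0.16) and Anxa1 (-1.41 ± 0.20). Of all genes tested, 9.09% were called higher and 7.18% lower in VAT than in Spl/LN of control mice. In Fat1562 mice these shares were 8.26% and 6.73%. They were 4.33% and 3.97% for Fat1562 in VAT, 2.58% and 1.4% in Spl/LN, and 1.7% and 2.02% for the interaction. Of 11 other components of the HIF pathway none was called between Fat1562 and control in VAT (0 also at an unadjusted p under 0.05) or in Spl/LN (2 at an unadjusted p under 0.05).

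Among 21 tested genes of other pyruvate fates, 2 rose and 2 fell with Fat1562 in VAT, against 4.33% and 3.97% of all genes tested. Pdk3, a pyruvate dehydrogenase kinase (0.80 ± 0.15, SE), and Mdh1, cytosolic malate dehydrogenase (0.40 ± 0.10), rose. Pdp1, the phosphatase that activates pyruvate dehydrogenase (-1.05 ± 0.25), and Emb, a partner protein of lactate carriers (-0.71 ± 0.12), fell. Got1, the cytosolic aspartate aminotransferase, was higher in VAT than in Spl/LN in control (1.82 ± 0.17) and in Fat1562 mice (2.18 ± 0.16). None of the 10 pentose phosphate genes was called between Fat1562 and control in VAT (1 at an unadjusted p under 0.05) or in Spl/LN (2), nor was any of 13 tested other isoforms of glycolytic enzymes and glucose carriers (2 and 2) or of 3 tested genes of gluconeogenesis (1 and 1).

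Of 24 tested regulators of T cell glycolysis, 1 rose and 1 fell with Fat1562 in VAT. Both counts are near the shares over all genes tested, 4.33% called higher and 3.97% lower. Batf, a transcription factor of activated T cells, had 1362 and 1376 normalized counts in VAT control and 2732, 2443 and 2101 in VAT Fat1562 (log2 fold change 0.82 ± 0.11 SE, edgeR adjusted p = 0.000165), and Pik3ip1, an inhibitor of PI3K, fell (log2 fold change -1.02 ± 0.23 SE, edgeR adjusted p = 0.0109). Myc, which drives glycolytic genes in activated T cells, had 1047 and 1086 in VAT control and 1146, 1222 and 797 in VAT Fat1562, with overlap. In Spl/LN it had 531, 484 and 484 in control and 291, 294 and 261 in Fat1562 and fell (log2 fold change -0.83 ± 0.14 SE, edgeR adjusted p = 0.00235). Myc was thus higher in VAT than in Spl/LN in control (1.09 ± 0.15, SE) and in Fat1562 mice (1.90 ± 0.14). In Spl/LN 3 of these regulators rose with Fat1562 and 2 fell, against 2.58% and 1.4% of all genes tested. The largest change was that of Pparg, the factor of adipocyte and VAT Treg cell identity (2.12 ± 0.42). The interaction of Pparg was below 0 (log2 difference -2.44 ± 0.53 SE, edgeR adjusted p = 0.0144).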

How the data were processed

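RNA of 1000 sorted cells per library was measured by Smart-seq2 (full-length cDNA, paired reads of 38 bases). The deposited gene counts, 1 column per library, were made by the authors with STAR 2.5.4 and featureCounts on mm10 per the labels, whereas the methods name Cuffquant. Whether strand was used is not given in the sources used here. All 11 columns matched a sample and 0 did not.

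The counts were analysed as deposited with edgeR 4.0.16 (R 4.3.3): TMM scaling, genes with a mean over 10 in at least 1 group, and 1 quasi-likelihood fit of 4 groups with 5 contrasts and no covariate. Adjusted p-values are Benjamini-Hochberg over 12932 genes, and fold changes use a prior count of 0.125. Normalized counts are TMM-scaled counts, set to the mean library total. The pipeline was tested on simulated data. Alternatives were other filters, scalings, limma 3.58.1, DESeq2 1.42.0, only the groups compared, a replicate block and leaving out each library. Gene positions and exon lengths came from GENCODE on GRCm38, and promoters from RefSeq.

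All 33 genes are accounted for, with values in every library for those called in at least 1 comparison. Of other gene lists, counts and up to 4 called genes of largest change without overlap are named. Foxp3 and Cd4 check the sort. The genes and lists were chosen with earlier results of these data known.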

Additional observations from a re-analysis of the deposited data

Results flagged for a closer look

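The effect of Fat1562 differed between VAT and Spl/LN by the interaction test for 5 genes, each with the larger log2 fold change in VAT. The differences of log2 fold changes were 2.51 ± 0.41 (SE, edgeR adjusted p = 0.00182) for Eno3, 2.04 ± 0.54 (SE, edgeR adjusted p = 0.0426) for Bnip3, 1.74 ± 0.29 (SE, edgeR adjusted p = 0.00268) for Slc16a3, 0.93 ± 0.17 (SE, edgeR adjusted p = 0.00525) for Pgk1 and 0.77 ± 0.18 (SE, edgeR adjusted p = 0.0226) for Tpi1. For Pgk1 and Bnip3 the log2 fold change was below 0 in Spl/LN, at -0.24 and -0.49, and above 0 in VAT, at 0.69 and 1.56. Of the 38-base stretches of their transcripts, 54.4% for Pgk1 and 53.3% for Bnip3 also occur in transcripts of other genes.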

How the results depend on the processing

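Of 46 calls on single genes, 27 held under every alternative, 19 were lost under at least 1 and none reversed sign. The number of called genes in Spl/LN (2 by the edgeR fit described) was 4 with no filter on low counts and 1 with quantile normalization and limma. The number in the interaction (5) was 8 with no filter and 8 with total count scaling. Leaving out 1 library at a time gave 9 to 17 called genes for Fat1562 against control in VAT, 1 to 3 in Spl/LN, 3 to 8 for the interaction, 4 to 9 for VAT against Spl/LN in control and 13 to 18 in Fat1562 mice. Where this left 1 VAT control library, that library was taken to vary like the other groups. Over all genes, calls rose from 515 to 793 with no filter in Spl/LN and from 481 to 720 in the interaction, and DESeq2 gave 793 and 789. With total count scaling, the share of calls that were higher went from 55.9% to 35.7% for VAT against Spl/LN in control, from 55.1% to 43.6% in Fat1562 mice, from 64.9% to 53.6% for Fat1562 in Spl/LN (54.8% with quantile normalization) and from 45.7% to 60.4% for the interaction. The cause of these shifts was not tested. Same-numbered Spl/LN and VAT libraries correlated at only 0.030 to 0.055 in their deviations from the group means, so the numbers were not taken to pair mice. Each same-numbered pair, in control and in Fat1562 mice, was still the best match of both its libraries. For Spl/LN Fat1562 replicate 3 the margin was narrow, at 0.030 against 0.028 with VAT replicate 2. With the replicate number as a block, the called genes were 6 and 17 for VAT against Spl/LN in control and Fat1562 mice, 17 and 2 for Fat1562 in VAT and Spl/LN, and 6 for the interaction, and of the named calls the block ended that of Pgam1 in VAT. At 2 to 3 libraries a group, genes with few counts such as Hk2 and Pfkfb4 were measured with the widest error.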
